A study of Mus musculus with 7 samples.

Results

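The oligoadenylate synthetase (OAS) family was followed in hearts of mice that had or had not received human CD4+ T cells. It was taken as the 8 gene rows named Oas1a, Oas1b, Oas1c, Oas1g, Oas2, Oas3, Oasl1 and Oasl2, out of 20343 complete gene rows in the analysed part of the deposited table. Members were chosen by name, as genes of 1 family, and the rule used no expression value. Earlier results of these data were known when they were chosen. Polyadenylated RNA from the apical region of the heart was sequenced in 7 mice of the strain NSG-DRB1*0101, also called NSG-DR1. NSG mice carry mutations that leave them without mature lymphocytes of their own, while neutrophils and macrophages remain, and the DRB1*0101 transgene supplies a human class II molecule that human CD4+ T cells can recognise. The 4 control mice were untreated, and the 3 transferred mice had been given human CD4+ T cells 6 weeks before the heart was taken. The labels give no age and describe no mock transfer for the control mice. They also do not say who gave the T cells, so spread between transferred hearts covers both host and donor cells as far as the labels go.

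OAS proteins are sensors of double-stranded RNA. When such RNA binds, the catalytic members join ATP into short 2′-5′-linked oligoadenylates (2-5A), which act as a second messenger of the antiviral response. The genes are among the classical targets of interferon, whose receptors activate transcription factors that bind interferon-stimulated response elements in their promoters. The OASL members carry ubiquitin-like domains, and mouse Oasl1 lacks synthetase activity. In the heart these genes are known mostly from viral myocarditis and from macrophages that respond to interferon.

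All 8 genes lie on chromosome 5 (build GRCm38.p6) at 2 places that are 5.79 Mb apart. Oasl2 (gene identifier 23962, 114896926 to 114912245) and Oasl1 (231655, 114923143 to 114937911) stand next to each other on the plus strand. The other cluster covers 191 kb and begins with Oas2 (246728, 120730333 to 120749886) and Oas3 (246727, 120753098 to 120777684). It goes on with Oas1c (114643, 120800194 to 120812540), Oas1b (23961, 120812635 to 120824163), Oas1g (23960, 120876142 to 120887613) and Oas1a (246730, 120896256 to 120907544), and it ends with Oas1d, which is not a member. Oas1b is on the plus strand and the other members of this cluster are on the minus strand. The table lists Oas1b as a transcribed pseudogene and the other 7 as protein-coding. Oas1b is known for resistance to flaviviruses, and most laboratory strains, the reference strain among them, carry a premature stop codon in it. No other row of the table overlapped a member.

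RefSeq promoter sequences (GRCm38.p6) were matched by symbol for 6 of the 8 members. The entries for Oas2 and Oas1b were missing. The letters GAAANNGAAA, the repeat at the heart of the interferon-stimulated response element, were searched on both strands in the 250 bases before the start site. They occurred in 4 of the 6 members, in 978 of all 32851 promoters (2.98%), and in promoters of 936 of 27025 genes (3.46%). Matches are printed below in capitals, on the strand of the named gene, to show where the element lies in the members. In Oas1a and Oas1g the capitals hold 2 overlapping matches. RefSeq start sites lie inside the outer end of the table's gene models by 19 bases for Oas1a, 25 for Oas3 and 26 for Oas1c, and at that end for Oas1g.

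Oas1a, chr5:120907526-120907555, minus strand: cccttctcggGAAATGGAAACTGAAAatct
Oas1g, chr5:120887614-120887643, minus strand: tgcccttctcggGAAATGGAAACTGAAAat
Oas3, chr5:120777712-120777741, minus strand: gggaggaGAAAACGAAAgtgaagggaggtg
Oas1c, chr5:120812541-120812634, minus strand: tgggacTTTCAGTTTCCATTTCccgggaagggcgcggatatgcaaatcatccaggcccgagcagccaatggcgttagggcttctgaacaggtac

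The same 16 letters with 2 overlapping matches stood at 20 bases before the start site of Oas1a and 18 bases before that of Oas1g, counted to the first base. The 250 bases upstream of these 2 genes were 82.8% identical in a global alignment. The single match of Oas3 began 75 bases before its start site. The stretch printed for Oas1c is all 94 bases between the gene models of Oas1c and Oas1b, which point away from each other. Its 2 overlapping matches, on the strand of Oas1b, ended 7 bases before the first base of Oas1b and lay 99 to 114 bases before the start site of Oas1c. Read on the strand of Oas1b, they are the same 16 letters as in Oas1a and Oas1g. No match occurred in these windows of Oasl1 and Oasl2. A match is a string of letters and not a measured binding site.

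Every member had its highest value in transferred heart 1, and Oas2 was the member that rose by the test used. Oas2 was 2.45-fold higher in transferred hearts (edgeR quasi-likelihood test, adjusted p = 0.0384, n = 4 and 3). Fitted differences of the other 7 ran from 1.77-fold for Oas1c to 15.3-fold for Oas3, all toward transferred hearts, and none passed the threshold of 0.05. So 1 of 8 members passed, against 0.13% of the 7667 tested genes that passed as higher and 0.235% that passed in either direction. At an unadjusted p under 0.05 there were 7 of 8, against 7.17% of tested genes on the higher side. The groups did not overlap in 5 of 8 (Oas1a, Oas1b, Oas1g, Oas2 and Oas3), against 6.0% of tested genes with every transferred heart above every control heart. All 8 were kept by the filter on low counts, but Oas3 was kept through the transferred hearts alone, so it had to differ. Without Oas3 the 3 counts are 1, 6 and 4 of 7. DESeq2 called 5 of the 8 members, or 4 of 7 without Oas3, against 2.28% of its genes on the higher side. By limma-voom 0 members and 0.0% of genes on that side were called, with 6 members at an unadjusted p under 0.05, or 5 of 7 without Oas3, against 6.7% of genes. In edgeR 4 members were called without transferred heart 3, or 3 of 7 without Oas3, against 1.64% of genes. None was called with the form of the animal identifier as a covariate, where 5 members, or 4 of 7 without Oas3, and 6.94% of genes had an unadjusted p under 0.05 on the higher side. None was called without transferred heart 2 or without any 1 of the control hearts. The median log2 fold change of the 8 was 1.62, beside a median of -0.002 over all tested genes. In bulk tissue a change in the number of cells of a type cannot be told apart from a change in RNA per cell.

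**Figure D1:**
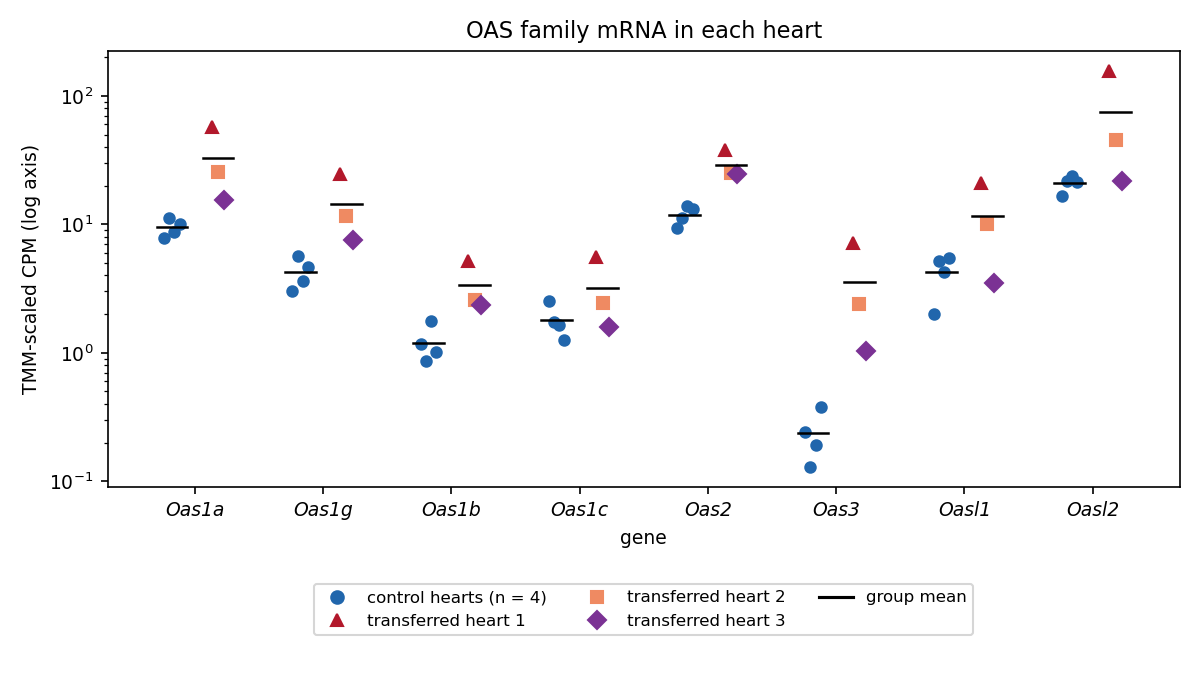
Expression of the 8 OAS genes in each heart, as TMM-scaled CPM (counts relative to the library size) on a log axis, with circles for the 4 control hearts, other symbols for the 3 transferred hearts and a bar for each group mean. Transferred heart 1 is the highest of the 7 hearts for all 8 genes, and transferred heart 3 lies inside the control range for Oas1c, Oasl1 and Oasl2.

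Values below are levels in CPM (counts relative to the library size, scaled by TMM, on the usual CPM scale). Among the Oas1 genes, the single-domain branch of the family, Oas1a had the highest counts. Its level was 7.88, 11.1, 8.73 and 10.1 CPM in the 4 control hearts and 57.0, 25.5 and 15.6 CPM in transferred hearts 1, 2 and 3. The lowest transferred heart was above the highest control heart. The fitted difference was 1.79 ± 0.40 in log2 units (± standard error, as in the next genes, edgeR adjusted p = 0.127).

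Oas1g is its closest relative in the table. It was at 3.01, 5.70, 3.59 and 4.64 CPM in control hearts and at 24.5, 11.5 and 7.51 CPM in transferred hearts. The order of the transferred hearts was the one seen for Oas1a, and again the groups did not overlap. On the log2 scale the difference was 1.77 ± 0.38 (edgeR adjusted p = 0.106).

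Oas1b, with its stop codon in common strains, stood at 1.17, 0.861, 1.77 and 1.01 CPM in control hearts. Its transferred values were 5.17, 2.59 and 2.37 CPM, all above the control range. The difference was 1.47 ± 0.36 in log2 units (edgeR adjusted p = 0.134).

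Oas1c shares the interval printed above with Oas1b. Control hearts had 2.53, 1.74, 1.65 and 1.26 CPM of Oas1c. Transferred hearts had 5.52, 2.45 and 1.58 CPM, so that hearts 2 and 3 lay within the control range. Its difference of 0.82 ± 0.42 in log2 units was the smallest of the family (edgeR adjusted p = 0.484).

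Oas2 encodes a larger synthetase built of repeated OAS domains. It was at 9.29, 11.2, 13.9 and 13.1 CPM in control hearts and at 37.8, 25.02 and 24.7 CPM in transferred hearts. The transferred hearts lay closest together for this gene, with a range of 0.62 on the log2 CPM scale, where the other members had ranges from 1.09 (Oas1b) to 2.84 (Oasl2). Its log2 fold change of 1.29 had the smallest standard error of the family, 0.19. The call was lost in fits without any one of the 4 control hearts and in the fit without transferred heart 2, with adjusted p from 0.0726 to 0.157 in edgeR. It was also lost with the form of the identifier as a covariate (edgeR adjusted p = 0.0682) and by limma-voom (adjusted p = 0.0703). It was kept without transferred heart 1 (log2 fold change 1.06, edgeR adjusted p = 0.0423).

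Oas3, the synthetase with the most OAS domains, was close to the counting floor in control hearts. There it had 5, 3, 5 and 6 counts, or 0.243, 0.129, 0.192 and 0.379 CPM, where 3 counts are worth between 0.115 and 0.189 CPM. The 19 control counts together give 0.222 CPM with an exact 95% Poisson interval of 0.133 to 0.346, which covers counting error only. Transferred hearts had 142, 51 and 21 counts, or 7.19, 2.40 and 1.04 CPM. Fitted over all hearts, the log2 difference was 3.93 ± 0.68 (edgeR adjusted p = 0.0546). Since Oas3 was kept by the filter through the transferred hearts alone, this difference is a description.

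The OASL pair showed a wide spread between transferred hearts, 2.84 on the log2 CPM scale for Oasl2 and 2.55 for Oasl1, beside 2.69 for Oas3. Oasl2 was at 16.7, 21.6, 23.8 and 21.3 CPM in control hearts and at 157, 45.6 and 21.9 CPM in transferred hearts. Heart 1 was far above all control hearts, heart 2 was above them and heart 3 was among them. This gave a log2 difference of 1.84 ± 0.64 (edgeR adjusted p = 0.325).

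Oasl1, which in mice is known to restrain translation of Irf7 mRNA, had 1.99, 5.16, 4.22 and 5.49 CPM in control hearts. It had 21.1, 10.02 and 3.51 CPM in transferred hearts. Heart 3 was below 3 of the 4 control hearts. The fitted log2 difference of Oasl1 was 1.45 ± 0.57 (edgeR adjusted p = 0.349).

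The differences were therefore tied to transferred heart 1 to unequal extents. That heart and control heart 1 are the 2 whose animal identifiers in the labels carry letters, and the other 5 identifiers are numbers. The labels do not say what the 2 forms stand for. Between the 2 lettered hearts, 1 of each group and so without a test, the differences in log2 CPM ran from 1.10 for Oas1c to 4.43 for Oas3. Within the 5 numbered hearts, 3 control and 2 transferred, the fitted log2 fold changes were lower for all 8 members. They were 0.97 for Oas2, 1.05 for Oas1a, 1.04 for Oas1g, 1.02 for Oas1b and 2.94 for Oas3, against 0.38 for Oas1c, 0.46 for Oasl1 and 0.61 for Oasl2. None passed the threshold there, the lowest edgeR adjusted p being 0.0999 for Oas2, while 5 of 8, or 4 of 7 without Oas3, had an unadjusted p under 0.05, against 7.16% of the genes tested in that fit on the higher side. Without transferred heart 1 the median over the members was 1.05 in place of 1.62. Oas1c was then at 0.17, Oasl1 at 0.69 and Oasl2 at 0.69.

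**Figure D2:**
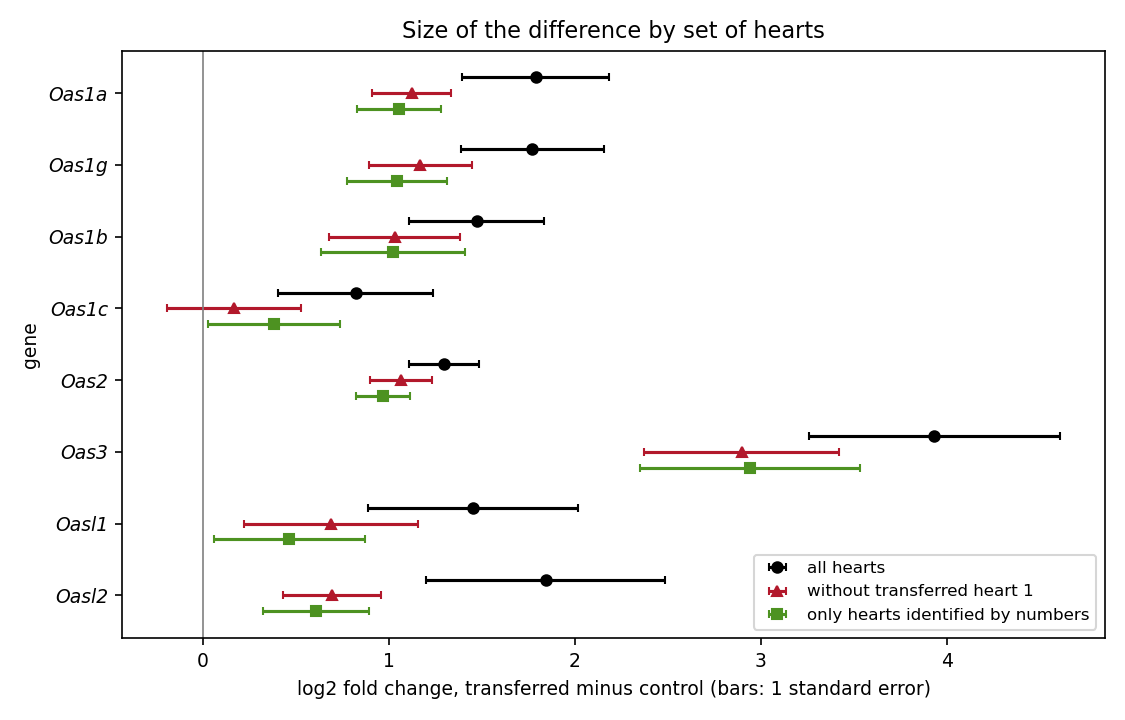
Log2 fold change of each member (transferred minus control, bars of 1 standard error) in 3 fits, with all 7 hearts, without transferred heart 1, and with only the 5 hearts identified by numbers. All 24 estimates are above 0, and Oas2 moves least between the fits, from 1.29 to 1.06 and 0.97.

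Levels were compared between genes as CPM per kb of combined exon length. In control hearts Oasl2 was highest at 6.64 ± 0.949 (SD, n = 4), followed by Oas1a at 4.70 ± 0.717. Their values overlapped over hearts. Oas1g at 2.05 ± 0.573, Oas2 at 1.98 ± 0.346 and Oasl1 at 1.84 ± 0.686 came next and overlapped with each other, all below Oas1a. Oas1c at 0.775 ± 0.229 and Oas1b at 0.653 ± 0.216 overlapped as well, and those of Oas1c reached into the range of Oasl1. Oas3 was lowest at 0.0480 ± 0.0216, below every value of Oas1b. In transferred hearts Oasl2 and Oas1a were again the first 2 and Oas3 the last, with means of 23.8, 16.3 ± 10.8 (SD, n = 3) and 0.721 ± 0.658. The 3 hearts of Oasl2 were far apart, as their CPM above show. The 1 neighbouring pair without overlap there was Oas2 at 4.86 ± 1.25 over Oas1b at 1.83 ± 0.845.

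**Figure D3:**
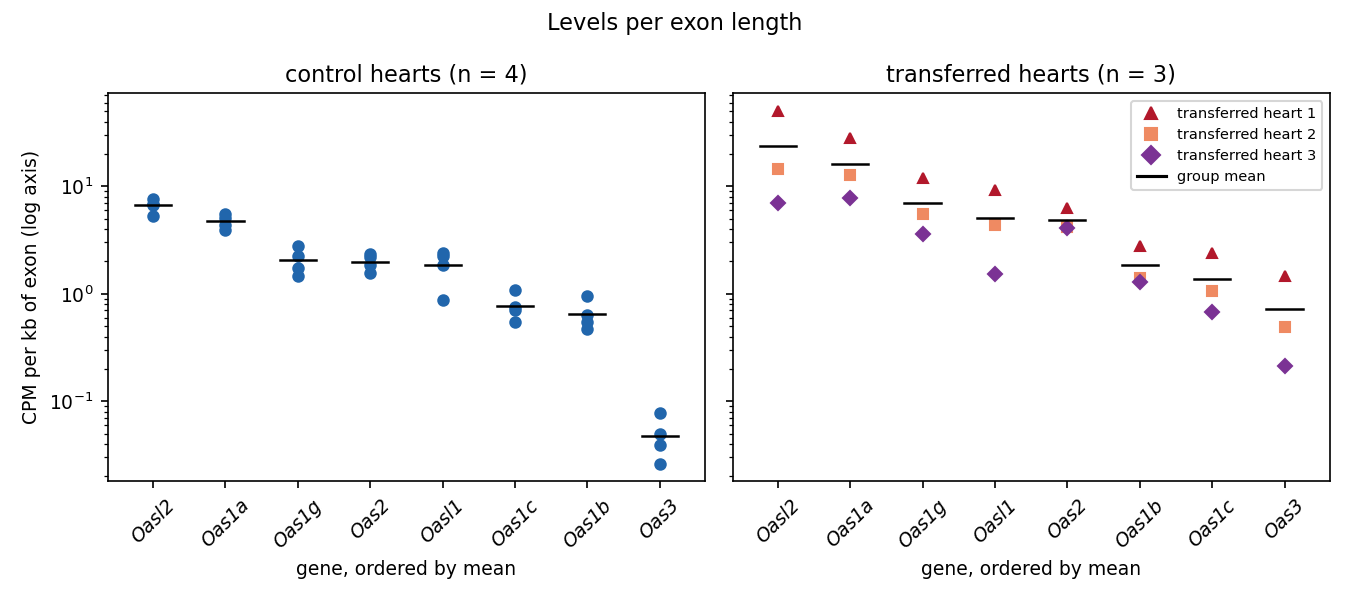
Levels of the members as CPM per kb of exon on a log axis, ordered by the mean in each group, with 1 point per heart and a bar for the mean. Oas3 is lowest in both groups, at means of 0.0480 in control and 0.721 in transferred hearts, and the first 2 genes, Oasl2 and Oas1a, are the same in both.

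Some reads cannot be assigned between Oas1a and Oas1g. In the GENCODE transcripts, 862 of the 1811 different 75-base stretches of Oas1a (47.6%) also occurred in Oas1g, of whose 2336 stretches they made up 36.9%. The series states a read length of 75 nt. Oas1c shared 37 of its 2459 stretches with Oas1d, Oas1e and Oas1f, and the other members shared none within the family. The deposited values of Oas1a and Oas1g had a fractional part in the same 3 control hearts (2, 3 and 4), and Oas1c had one in 1 heart. How much of the value of either gene came from shared reads is not given. The count of Oas1g was 0.383 to 0.513 of that of Oas1a in control hearts and 0.429 to 0.483 in transferred hearts, so the ratio of the transferred hearts fell inside the control range. With the 4 Oas1 members added up before the fit, their sum differed by 1.69 on the log2 scale (adjusted p = 0.134 in edgeR).

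Ratios of counts in other pairs are given as descriptions, without a test, since the pairs were chosen with values known. Ratios of Oasl1 to Oasl2 overlapped, at 0.119 to 0.258 in control and 0.134 to 0.220 in transferred hearts. The ratio of Oas3 to Oas2 was 0.0115 to 0.0288 in control hearts and 0.190, 0.0959 and 0.0421 in transferred hearts 1 to 3, without overlap. Oas3 was kept by the filter through the transferred hearts alone, so the direction of this ratio is not independent of that. The ratio of Oas1c to Oas1b was 0.935 to 2.17 in control and 0.667 to 1.07 in transferred hearts, with overlap.

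Genes beside the clusters did not pass the test. The 3 nearest protein-coding genes on each side of either cluster were 12, of which 7 had enough counts. Around the OASL pair, Ankrd13a had a log2 fold change of -0.15, 2610524H06Rik of 0.06, 2210016L21Rik of -0.06 and Sppl3 of -0.08. The gene 2210016L21Rik begins 4.24 kb after Oasl1. Beside the other cluster, Dtx1 (18.5 kb from Oas2) was at 0.39, Ptpn11 at -0.22 and Rpl6 at 0.14. Their edgeR adjusted p ran from 0.457 to 0.965. Of the 4 Oas1 genes of the cluster that are not members, Oas1d and Oas1h had no counts in any heart, and Oas1f had 1 count in 1 heart of each group.

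**Figure D4:**
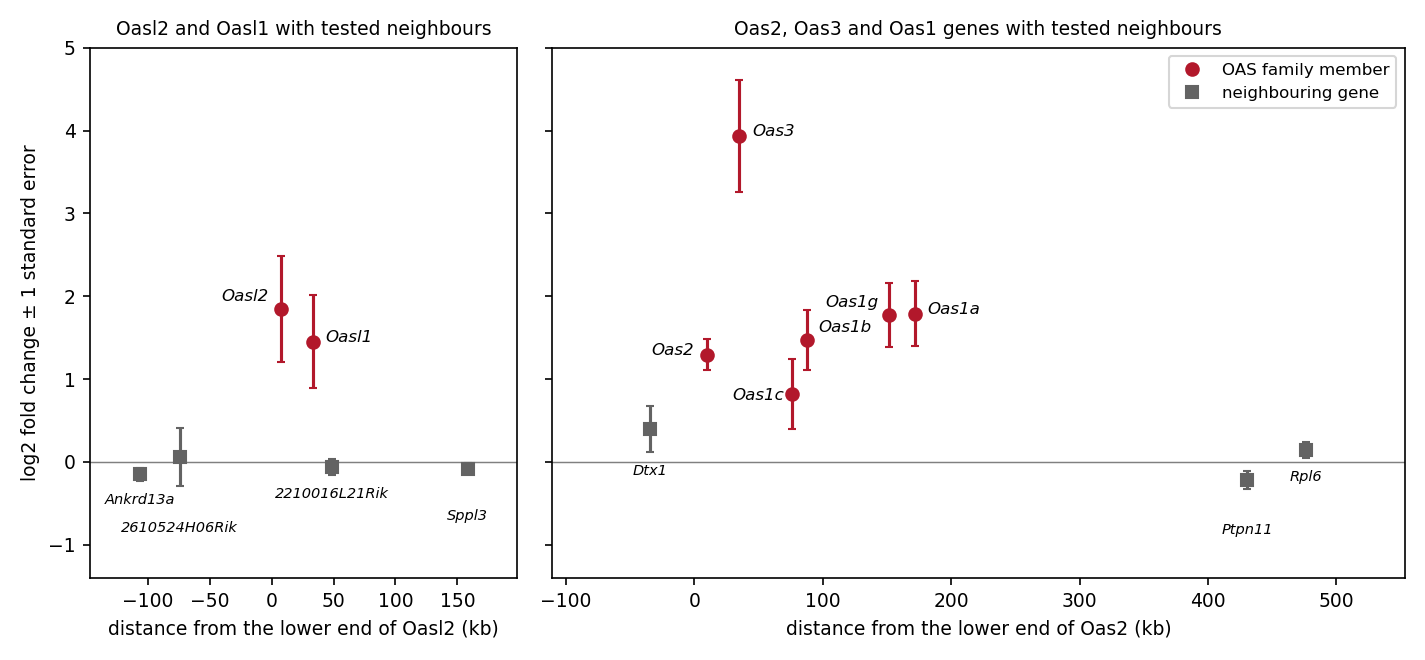
Log2 fold change (± 1 standard error, 7 hearts) of the members and of tested neighbouring genes against distance in kb from the lower end of Oasl2 (left) and of Oas2 (right), drawn at the middle of each gene. Members range from 0.82 to 3.93, and the 7 neighbours from -0.22 to 0.39.

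The rest of the pathway was read from lists of interferon and RNA-sensing genes. Of 104 listed genes, 57 were in the analysed part of the table and 32 were tested. None of the 32 passed the threshold (edgeR), 27 had a positive log2 fold change and 23 had an unadjusted p under 0.05, all on the higher side, where 7.17% of all tested genes were. DESeq2 called 7, and edgeR called 12 without transferred heart 3, against 2.28% and 1.64% of all genes in those fits. The median log2 fold change over the 32 was 0.73.

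Mouse genes of type I and type III interferon ligands were at or near 0. Of 20 listed type I and type III ligand genes in the table, Ifnb1 and the Ifna genes among them, 19 had no counts in any heart. Ifnz had 2 counts in all, both from transferred hearts. In a single heart, 0 counts allow up to 0.115 to 0.189 CPM, taken as 3 counts of its total. Ifng, the type II ligand gene on the list, was not analysed here. The rows are mouse genes and do not measure interferon mRNA of the human cells.

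Among the signal carriers, Irf7, the factor that amplifies type I interferon production, was at 22.6 to 25.9 CPM in control hearts. It was at 931, 119 and 27.3 CPM in transferred hearts 1, 2 and 3. Each transferred heart was above the controls, heart 3 by little. Its log2 difference of 3.89 ± 1.11 had a wide error (edgeR adjusted p = 0.253). Usp18, a protease that removes ISG15 and dampens receptor signalling, was at 81.2, 21.2 and 7.86 CPM in transferred hearts and 6.47 to 9.84 CPM in control hearts (log2 fold change 2.29, edgeR adjusted p = 0.301). Irf5 and Irf3, factors downstream of innate receptors, differed less, by 0.61 and 0.16 on the log2 scale.

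Of 7 tested genes in the list of nucleic acid sensors and their partners, 5 had an unadjusted p under 0.05 on the higher side. They were Ifih1, Ddx58, Zbp1, Adar and Ikbke, and the share of all tested genes was 7.17%. Zbp1, which recognises Z-form nucleic acid, was at 0.924 to 1.89 CPM in control hearts and at 27.4, 7.76 and 2.52 CPM in transferred hearts (log2 fold change 3.32, edgeR adjusted p = 0.139). Ifih1, encoding the RNA sensor MDA5, was at 16.8 to 17.2 CPM against 61.7, 28.2 and 19.3 CPM. Both repeated the order of hearts seen in the OAS genes. Ikbke, a kinase downstream of the sensors, had the opposite order, with 1.37, 1.98 and 2.17 CPM in hearts 1, 2 and 3 over 0.775 to 1.15 CPM in controls. Mavs and Aim2 had log2 fold changes of -0.11 and -0.01.

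Of 16 tested interferon-induced effector genes, 15 had a positive log2 fold change. On the higher side 14 had an unadjusted p under 0.05, against 7.17% of all tested genes. The 3 with the smallest p were Herc6, a ligase that attaches ISG15, Ifi204, a DNA sensor, and Trim30a, a ubiquitin ligase that restrains innate signalling. Their log2 fold changes were 0.89, 0.78 and 1.02, with edgeR adjusted p of 0.0792, 0.0995 and 0.127. Over the 32 tested pathway genes, 23 (71.9%) had their highest transferred value in heart 1, against 36.5% of all tested genes.

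Genes with the profile closest to the family were found by the root mean square difference over the 7 hearts from the members' median profile, in log2 CPM relative to the control mean. That profile was 2.47, 1.23 and 0.79 in transferred hearts 1, 2 and 3. The nearest of the other tested genes was Siglec1, a sialic acid receptor of macrophages that is itself induced by interferon, at a distance of 0.311. It had at most 15.1 CPM in control hearts and 64.6, 26.2 and 18.6 CPM in transferred hearts. Ifi44 (0.312) and Gbp3 (0.328), both interferon-induced, followed, and then Fcgr1 (0.339), the high-affinity Fc receptor of monocytes and macrophages. The next were Hmga2-ps1 (0.347), Cd72 (0.359), a lectin known mainly from B cells, Gm15753 (0.378) and LOC105246914 (0.396). Within the family the distance was smallest for Oas1a (0.133) and largest for Oas3 (1.13). The list is ordered by likeness over 7 hearts, and none of these genes passed the threshold.

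**Figure D5:**
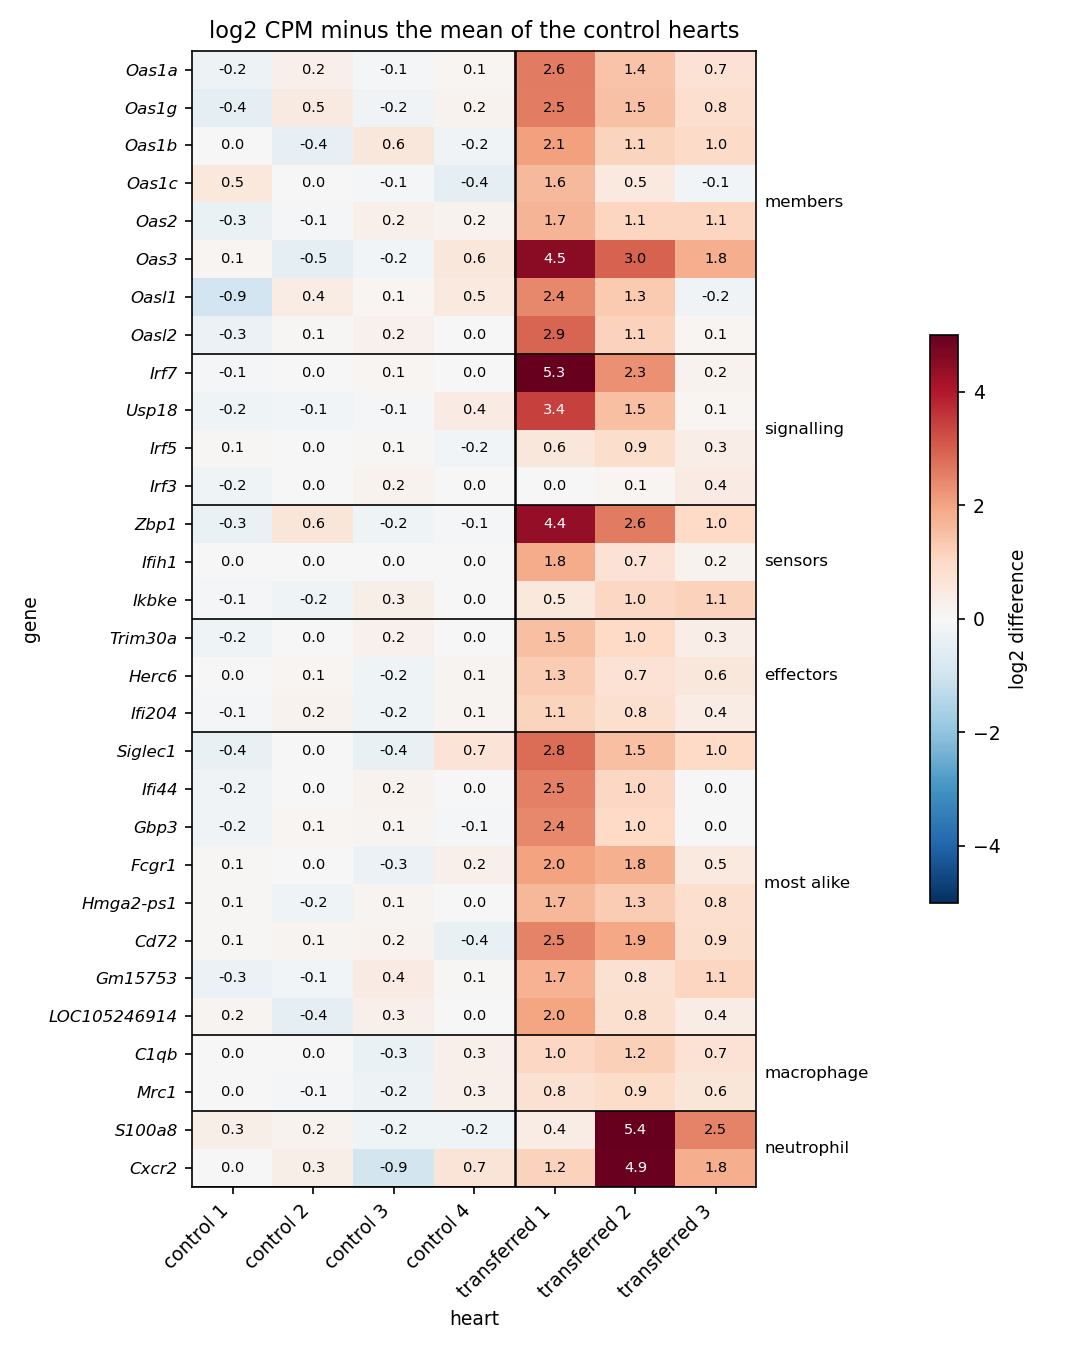
Log2 CPM minus the mean of the control hearts for each heart (columns) and gene (rows), with the value printed in each cell. The OAS rows fall from transferred heart 1 to heart 3, whereas S100a8 and Cxcr2 peak in transferred heart 2.

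Cell markers moved with the hearts too, and their part in the OAS values was not tested. The analysed part of the table held 9 of 15 macrophage and monocyte markers, and in 8 of these the transferred hearts were all above the control hearts, as in 6.0% of all tested genes. C1qb and Mrc1 rose by 0.98 and 0.77 on the log2 scale (edgeR adjusted p = 0.0384 for each). The summed level of these markers was 417 to 618 CPM in control hearts and 999.7, 1098 and 750 CPM in transferred hearts 1, 2 and 3. The sum was thus highest in heart 2, as were 6 of the 9 markers, while the OAS genes were highest in heart 1. C1qa, Fcgr1 and Fcer1g were highest in heart 1, Fcgr1 with 27.4, 22.95 and 9.29 CPM in transferred hearts 1, 2 and 3. Neutrophil markers, 4 of 8 in the table, summed to 7.60 to 11.02 CPM in control hearts and to 11.1, 249 and 34.8 CPM in transferred hearts. Heart 1, with the highest OAS values, had neutrophil markers near the control range.

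T cell markers, 6 of 10 in the table, summed to 29.96 to 38.3 CPM in control hearts and 28.5, 36.03 and 31.0 CPM in transferred hearts. These are rows of mouse genes and the transferred cells were human, so the sum is no measure of the transferred cells. Which cells gave these counts was not tested. Most of the sum was Cd28, at 23.1 to 31.4 CPM in control and 21.9 to 29.3 CPM in transferred hearts. Cd2, too low to be tested, had 4, 3 and 5 counts in transferred hearts and at most 1 count in a control heart. Of the 3 tested, Cd4 had a log2 fold change of 0.35 and Cd247 was lower at an unadjusted p under 0.05, with means of 3.66 CPM in control and 1.76 CPM in transferred hearts. Cd3d, Cd3e and Cd3g were not analysed here. Natural killer cell markers, 5 of 6 in the table, summed to at most 0.152 CPM in every heart, and Ncr1 and Klrb1c had no counts. Siglech, a marker of plasmacytoid dendritic cells and the 1 of its list in the table, was at 2.54 CPM on average in control and 1.69 CPM in transferred hearts (log2 fold change -0.58, edgeR adjusted p = 0.496). Endothelial and fibroblast lists had medians of 0.10 and -0.03, with 6 and 4 tested genes. Of the endothelial genes Vwf and Emcn were higher and Tie1 lower at an unadjusted p under 0.05, and none of either list passed the adjusted threshold. Cardiomyocyte markers, which define the tissue, summed to 99536 to 118235 CPM in control hearts and 94373 to 120550 CPM in transferred hearts, with a median log2 fold change of -0.02.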

How the data were processed

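The authors deposited 1 table of estimated counts per gene, not normalized, with combined exon lengths, per the file headers. The submitters' processing notes name the build GRCm38.p6, bcl2fastq 2.20.0.422, cutadapt 2.5, STAR 2.7.2b, featureCounts 1.6.4 and DESeq2 1.22.2, without roles. Of the values, 4.63% had a fractional part, and all were rounded for testing. The part analysed here holds 20343 complete rows of chromosomes 1 to 7 and the start of chromosome 8. Column totals over it were 16402194 to 25190580 counts. Replicates are separate mice, numbered in accession order.

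Genes kept by filterByExpr (7667) were scaled by TMM and tested with robust quasi-likelihood in edgeR 4.0.16 (R 4.3.3), with Benjamini-Hochberg adjustment over all of them. Standard errors came from the F statistic. Log2 CPM used a prior count of 2. DESeq2 1.42.0, limma 3.58.1 (voom), other scalings, filters and sets of hearts were alternatives. The procedure was also run on simulated counts with the same spread between hearts for all genes. That run does not cover genes with 1 extreme heart. Members and lists were chosen with earlier results of these data known. Named genes were the members, the pathway genes that passed, Irf7, Irf3, the 3 smallest p of each list, the 8 closest profiles and the neighbours of the clusters. Cell markers, Mavs, Aim2, Ddx58, Adar, Ifnb1, Ifnz, Ifng and the genes of the closing observations are named outside that rule. Some genes of the lists are not reported here by name.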

Additional observations from a re-analysis of the deposited data

Results flagged for a closer look

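Oas1e, a gene of the Oas1 cluster outside the 8 members, had too few counts to be tested. It had 8 counts in transferred heart 1, none in transferred hearts 2 and 3, and at most 1 count in a control heart, which is why it is listed here. Summed over the transferred hearts this is 0.131 CPM with an exact 95% Poisson interval of 0.0564 to 0.257, against 0.0233 CPM (0.00283 to 0.0843) over the control hearts, counting error only, with the control sum of 1.5 counts rounded to 2. Of the 75-base stretches of its transcripts, 1.17% also occurred in Oas1c. By Dixon's criterion for 4 samples (the gap to the nearest heart as a share of the log2 range, at its 95% critical value), which has little power, no control heart was an outlier in any of the 8 members. Oasl1 in control heart 1 was at 1.99 CPM against 4.22 to 5.49 CPM in the other control hearts.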

How the results depend on the processing

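The 8 members had positive log2 fold changes in all 148 member fits under the alternatives. These fits reuse the same 7 hearts or some of them, so they are not independent of each other. The count of members past the threshold, 1 (Oas2), became 2 with total count scaling and 2 with all genes of at least 1 count. Those called were Oas2 and Oas3 in both, so Oas2 alone without Oas3. The share of all genes called in those 2 fits was not counted. DESeq2 gave 5 (Oas1a, Oas1b, Oas1g, Oas2 and Oas3), against 2.28% of its genes on the higher side. The count of members became 0 with limma-voom, 0 with the form of the identifier as a covariate and 0 with the numbered hearts alone. In these fits 6, 5 and 5 members had an unadjusted p under 0.05 (5, 4 and 4 of 7 without Oas3). The shares of all genes on the higher side were 6.7%, 6.94% and 7.16%. Leaving out 1 heart at a time gave from 0 to 4 members. The 0 came without any single control heart and without transferred heart 2 (5 or 6 members at an unadjusted p under 0.05, each time with Oas3 among them, against 5.16% to 6.999% of all genes), and the 4 without transferred heart 3 (Oas1a, Oas1g, Oas2 and Oas3). For other pathway genes the count of 0 became 1 with all genes of at least 1 count (Herc6), again without a share of all genes. It became 7 with DESeq2, against 2.28% of its genes. Leaving out 1 heart gave from 0 to 12, the 12 without transferred heart 3. The other scalings and filters, unrounded values, a fit without robust estimation, and the Oas1 genes added up or left out kept the count of 1 for the members. Ranked by CPM without division by length, 3 in place of 2 neighbouring pairs of members did not overlap in control hearts, where Oasl2 and Oas2 came first, and Oas1c in place of Oas3 was last in transferred hearts. The causes of these changes were not tested. Members under the expression filter gave no value, since there were none. No paired analysis was possible because the replicate numbers were given in accession order and pair no hearts. With 19 counts over 4 control hearts, depth limits the size of the Oas3 difference.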

Other observations

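Of the 16 tested interferon-induced effector genes, 13 had values in descending order over transferred hearts 1, 2 and 3 as the OAS genes did, against 18.8% of all tested genes. Those that did not were Ifitm1, Ifitm2 and Cxcl10. The 4 genes given here are outside the naming rule and were picked after their values were seen. Isg15, the ubiquitin-like modifier, had 111, 29.3 and 9.93 CPM in transferred hearts 1, 2 and 3 over 10.6 to 13.6 CPM in control hearts, with heart 3 below all controls. Cxcl10, a chemokine for T cells, had 1.17, 5.36 and 0.741 CPM against 0.689 to 1.14 CPM, and Ifitm1, which blocks virus entry, had 5.77, 23.8 and 7.16 CPM against 3.66 to 7.10 CPM. Cxcl10 and Ifitm1 were highest in heart 2, where the neutrophil markers peaked. Cxcl9, a chemokine induced mainly by interferon gamma, had 26.5, 19.9 and 7.91 CPM against 17.3 to 22.5 CPM, so it had the OAS order of hearts, as Isg15 did, but with heart 3 below the controls. None of these 4 passed the threshold (edgeR adjusted p from 0.345 to 0.882), and the differences between the hearts of a group were not tested.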
